A study of Homo sapiens with 12 samples.

Results

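MDA-231-LM2 is a lung-tropic derivative of MDA-MB-231, a human triple-negative breast cancer line. The comparison described here set 3 RNA-seq libraries of these cells labelled TMEM216 and given IGF1 (TMEM216+IGF1) against 3 libraries labelled Ctrl without IGF1 (Ctrl). These 6 libraries were chosen by their labels, out of 12 in the series. The other 6 were Ctrl+IGF1 and TMEM216 without IGF1, with 3 libraries each. All groups shared the same line, and the groups compared differed in both factors at once. How TMEM216 was altered, what the Ctrl cells carried and the dose and duration of IGF1 are not stated in the labels. They also leave unstated whether a group was a single clone or whether replicates were separate cultures, so the p-values reflect only library-to-library spread, possibly technical.

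TMEM216 encodes a small membrane protein of the transition zone, the gate at the base of the primary cilium, and its loss underlies Joubert and Meckel syndromes. IGF1 is a growth factor that binds the receptor tyrosine kinase IGF1R, which signals through IRS adaptors to the PI3K-AKT and RAS-ERK pathways. ERK signalling switches on immediate early genes such as FOS and EGR1. ATF4, a transcription factor whose translation increases when amino acids are scarce or the endoplasmic reticulum is stressed, switches on genes for amino acid synthesis, amino acid uptake and tRNA charging.

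Expression was given as TPM, a level per transcript already corrected for transcript length and library total. Differences below are on the log2(TPM + 1) scale, TMEM216+IGF1 minus Ctrl, with limma's standard error (SE), and understate the change of low genes. A feature was called higher or lower when its Benjamini-Hochberg adjusted p over all 13071 tested features was under 0.05. Features were tested if they reached a TPM of 1 in at least 3 of the 12 libraries. Sequencing depth is unknown, because TPM holds no read counts.

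Pearson correlations between the 6 libraries were between 0.9827 and 0.9895, and no libraries were identical. Their first principal component held 33.1% of the variance and separated the groups, with scores from -16.04 to -13.26 in Ctrl and from 9.1 to 19.54 in TMEM216+IGF1. Ribosomal protein genes took 12.6% to 13.3% of TPM in Ctrl and 12.9% to 13.2% in TMEM216+IGF1. The share was higher in Ctrl+IGF1 replicate 3 (16.9%) and TMEM216 replicate 1 (14.6%). Both enter the difference between TMEM216+IGF1 and Ctrl only through the shared estimate of spread. They enter directly into the differences that use their own groups, given near the end. The markers fitted the labelled line in part. The mesenchymal filament gene VIM was at 6322 and 6277 TPM on average, and the epithelial cadherin CDH1 and the hormone receptors ESR1 and PGR stayed at or below 0.2041 TPM in these 6 libraries. ERBB2 (34.12 to 41.2 TPM), EPCAM (13.81 to 14.68 TPM) and GATA3 (5.81 to 8.768 TPM), set down as low or absent markers, were present. The T cell marker CD3E was listed at 0 in all 12 libraries, and the pan-leukocyte gene PTPRC did not exceed 0.1014 TPM. The 6 leukocyte markers still summed to 204 to 213 TPM in Ctrl and 185 to 206 TPM in TMEM216+IGF1, nearly all from the lysosomal gene CD68 (182.2 to 210.8 TPM), with CD14 at 1.664 to 3.145 TPM. Their part in the results was not tested. The 6 fibroblast markers summed to 0.803 to 1.48 TPM in Ctrl and 1.06 to 1.6 TPM in TMEM216+IGF1, and the 5 endothelial markers to 3.24 to 3.76 and 3.69 to 4.24 TPM.

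TMEM216 transcript was at 30.1, 24 and 25.1 TPM in the Ctrl libraries and at 232, 221 and 224 TPM in the TMEM216+IGF1 libraries. Every TMEM216+IGF1 library was far above every Ctrl library, so the transcript followed the labels. The means, 26.4 ± 3.25 and 226 ± 5.70 TPM (SD, n = 3 for every mean below), differed 8.55-fold (log2 3.05, SE 0.14, adjusted p = 3e-07). An exact permutation test over the 6 libraries gave a two-sided p of 0.1, the smallest that its 20 splits can give. The IGF1 transcript itself was at most 0.233 TPM in these libraries and was not tested, as it did not reach the minimum level.

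Of the 13071 features, 303 (2.32%) were called, 102 higher (0.78%) and 201 lower (1.54%) in TMEM216+IGF1. Most changes were smaller than 1 on the log2 scale: 5 of the features called higher, TMEM216 among them, and 24 of those called lower moved by at least that much. The genes with the largest falls included immediate early factors (FOS, EGR1), genes of the ATF4 programme (CHAC1, NUPR1, CTH, ASNS, PCK2), and the secreted peptide precursors EDN1 and KISS1. Those with the largest rises included the desaturase SCD, the MHC class II chain HLA-DRA and the ephrin EFNB2. Of these, the plot of difference against expression level labels FOS, EGR1, CHAC1, ASNS, EDN1, SCD and HLA-DRA. The 6 libraries fitted alone gave 721 calls, 266 higher and 455 lower. Under quantile normalization 46.6% of 401 calls were higher, and under median-of-ratios scaling 44.3% of 388, against 33.7% in the fit reported. Leaving out any 1 of the 6 libraries compared lowered the count by over 1.5 times: to 126, 98 and 125 without Ctrl replicates 1, 2 and 3, and to 112, 112 and 154 without TMEM216+IGF1 replicates 1, 2 and 3. In every called feature the libraries of the 2 groups did not overlap, a separation that 29.3% of all features showed.

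**Figure D1:**
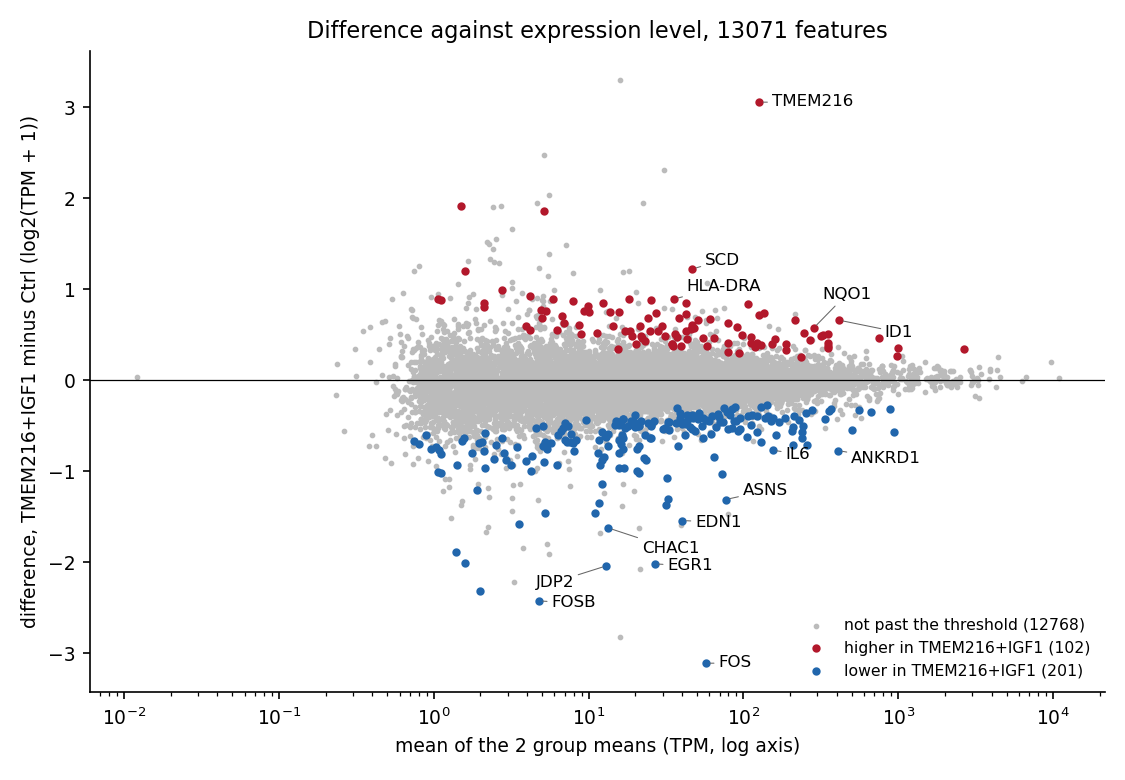
Difference between TMEM216+IGF1 and Ctrl (log2(TPM + 1), vertical axis) against the mean of the 2 group means (TPM, log axis) for each of the 13071 tested features. Red points are the 102 features called higher and blue points the 201 called lower; TMEM216 lies at 3.05 and FOS at -3.11.

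AP-1 transcription factors are dimers of FOS and JUN family proteins. FOS was at 108, 101 and 99.7 TPM in the Ctrl libraries and at 11.3, 10.0 and 11.7 TPM in the TMEM216+IGF1 libraries. All 3 treated libraries sat at about the same low level, far under the lowest Ctrl library. The mean fell 9.32-fold (log2 -3.11, SE 0.11, adjusted p = 2.83e-08). FOSB, its close relative, was at 9.83, 7.86 and 8.41 TPM in Ctrl and at 0.79, 1.02 and 0.603 TPM in TMEM216+IGF1 (log2 -2.43, SE 0.16, adjusted p = 6.12e-06). FOSB overlaps ERCC1 on the opposite strand, and whether the counting used strand is not known, so reads of overlapping genes may be shared. MAFF, a small MAF protein, fell from 79.1 ± 2.53 to 59.6 ± 2.37 TPM (log2 -0.40, adjusted p = 0.0257) and also overlaps a gene on the opposite strand. Thus 3 of 10 tested genes in the AP-1 list were lower and none higher. That list also holds MAFF and BATF3, which are not of the FOS or JUN families. The JUN members did not pass, with log2 -0.41 for JUNB (adjusted p = 0.0613), -0.19 for JUND and -0.09 for JUN, nor did FOSL1 (0.07) and FOSL2 (0.02). The list's median was -0.263, against -0.027 over all features. The call of MAFF was lost on leaving out any 1 of the 6 libraries compared (log2 -0.37 where nearest 0), while FOS and FOSB kept theirs without each of the 12 libraries.

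Of 24 tested genes of the EGR and IER families and of ERK feedback, 4 were lower and 1 higher, with a median of -0.195. EGR1, a zinc finger factor induced within minutes of growth factor signals, was at 44.8, 40.8 and 44.5 TPM in Ctrl and at 11.4, 8.77 and 9.76 TPM in TMEM216+IGF1. Its highest treated library was well below its lowest Ctrl library, and the mean fell 4.34-fold (log2 -2.02, SE 0.13, adjusted p = 3.99e-06). DUSP1, a phosphatase that switches MAP kinases off, was at 96.8, 98.0 and 98.4 TPM in Ctrl and at 48.0, 48.7 and 44.9 TPM in TMEM216+IGF1 (log2 -1.04, SE 0.10, adjusted p = 0.000163). CCN1, a matricellular protein, fell from 1130 ± 23.4 to 761 ± 31 TPM (log2 -0.57, adjusted p = 0.00491). DUSP5, a nuclear ERK phosphatase, fell by 0.29 on the log2 scale (adjusted p = 0.0498), and PHLDA1 rose by 0.26 (adjusted p = 0.0485). Both were just inside the threshold and were lost without any 1 of the 6 libraries compared, Ctrl+IGF1 replicate 1 or TMEM216 replicate 2 (log2 -0.26 and 0.24 where nearest 0). DUSP5 also did not pass under quantile normalization or median-of-ratios scaling. KLF4 did not pass (47.5 ± 0.540 and 32.9 ± 4.39 TPM, log2 -0.52, adjusted p = 0.0524).

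The promoter of EGR1 is shown because it is the called immediate early gene whose start-proximal sequence holds CArG boxes, the sites of serum response factor through which ERK signals reach these genes. The 250 bases before the RefSeq start (GRCh38.p14, chr5:138465229-138465478, plus strand) are given 5′ to 3′, with the CArG matches, 105 and 83 bases before the start, in capitals.
EGR1: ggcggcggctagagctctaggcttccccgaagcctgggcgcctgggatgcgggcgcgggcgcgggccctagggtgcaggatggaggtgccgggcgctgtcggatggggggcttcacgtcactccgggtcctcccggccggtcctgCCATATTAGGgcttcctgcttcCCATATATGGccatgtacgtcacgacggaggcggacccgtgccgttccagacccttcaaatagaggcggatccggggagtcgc
Of 8 called AP-1, EGR, IER and ERK feedback genes, 6 had a promoter in the RefSeq table and 1 of these held a CArG match. So did 1.14% of all 27305 promoters of this length, searched on both strands. Bases farther than 250 from the start were not searched, so a gene without a match here could hold one there. A match is a description of letters, not of binding.

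**Figure D2:**
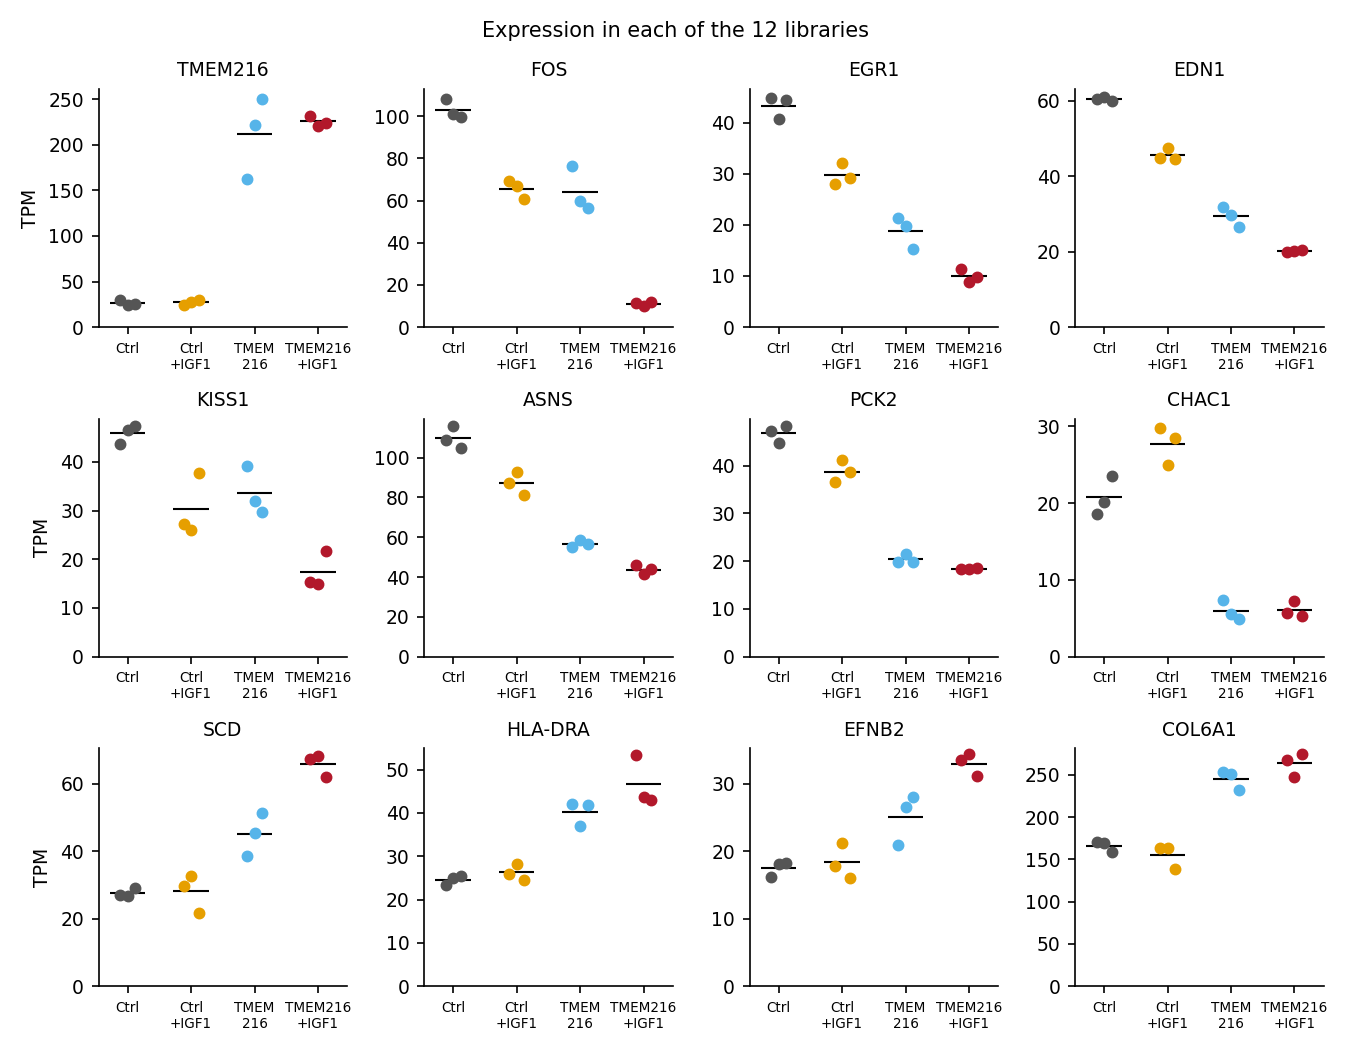
TPM of 12 named genes in each of the 12 libraries (1 panel per gene, linear axis from 0; points are libraries, lines are group means; the groups are Ctrl, Ctrl+IGF1, TMEM216 and TMEM216+IGF1). FOS falls from 103 TPM in Ctrl to 11.0 TPM in TMEM216+IGF1, with the single-factor groups at 65.5 and 64.3 TPM, while CHAC1 and PCK2 are about as low in TMEM216 as in TMEM216+IGF1.

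Many genes of the ATF4 programme were lower. Of the 38 tested in its lists of amino acid synthesis, amino acid transport and stress effectors, 20 were called lower and none higher. Over all features 1.54% were called lower. These lists were chosen with earlier results of these data known, so the share is no independent support. The enzymes that make non-essential amino acids fell widely, with 8 of 11 lower and a median of -0.637. ASNS, asparagine synthetase, was at 109, 116 and 105 TPM in Ctrl and at 45.8, 41.4 and 44.0 TPM in TMEM216+IGF1. The groups lay far apart, and the mean was 2.52-fold lower (log2 -1.31, SE 0.08, adjusted p = 1.93e-06). PCK2, mitochondrial phosphoenolpyruvate carboxykinase, was at 47.2, 44.8 and 48.4 TPM in Ctrl and at 18.3, 18.3 and 18.5 TPM in TMEM216+IGF1 (log2 -1.30, SE 0.08, adjusted p = 1.93e-06), and overlaps NRL on the opposite strand. CTH, which makes cysteine from cystathionine, fell from 17.3 ± 1.49 to 6.18 ± 0.617 TPM (log2 -1.35, adjusted p = 0.000154). The 3 enzymes of the serine pathway fell together: PHGDH from 85.1 ± 2.87 to 61.5 ± 2.90 TPM, PSAT1 from 291 ± 5.44 to 187 ± 7.10 TPM and PSPH from 47.4 ± 3.48 to 28.3 ± 0.728 TPM. GPT2, an alanine transaminase, fell from 30.8 ± 0.645 to 16.3 ± 0.964 TPM, and the proline enzyme PYCR1 from 94.4 ± 7.83 to 65.2 ± 9.66 TPM. SHMT2 (-0.38), MTHFD2 (-0.46) and ALDH18A1 (0.12) did not pass. The call of PYCR1 was lost without any Ctrl library or TMEM216+IGF1 replicate 1 or 2 (closest to 0 at log2 -0.47), and over the leave-one-out fits 7 to 9 enzymes were called lower. PYCR1 also did not pass under median-of-ratios scaling.

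Promoters of ASNS and CHAC1, the second a glutathione-degrading enzyme, are shown because they are the called ATF4 genes whose 250 bases before the start hold the ATF4 response element TGATGNAA. Each is given 5′ to 3′ on the strand of its gene (RefSeq, GRCh38.p14), with the match in capitals. The ASNS stretch is chr7:97872409-97872658, minus strand, with the match 68 bases before the start. The CHAC1 stretch is chr15:40953221-40953470, plus strand, with the match on the opposite strand 209 bases before the start.
ASNS: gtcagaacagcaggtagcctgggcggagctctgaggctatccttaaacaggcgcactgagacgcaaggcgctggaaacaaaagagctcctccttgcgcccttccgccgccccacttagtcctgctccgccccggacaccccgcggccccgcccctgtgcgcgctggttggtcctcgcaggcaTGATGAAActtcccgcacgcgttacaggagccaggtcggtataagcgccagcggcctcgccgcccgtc
CHAC1: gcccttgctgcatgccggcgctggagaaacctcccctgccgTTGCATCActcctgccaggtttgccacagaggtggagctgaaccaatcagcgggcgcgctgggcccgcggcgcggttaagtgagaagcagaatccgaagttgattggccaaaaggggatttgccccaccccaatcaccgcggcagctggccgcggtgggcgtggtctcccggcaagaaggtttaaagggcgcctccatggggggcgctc
Of the 20 called ATF4 genes, 16 had a promoter in the table and 2 of these held a match, as did 3.19% of all 27305 promoters on either strand.

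Among 17 tested stress effectors of the ATF4 programme, 7 were lower, with a median of -0.487. CHAC1 was at 18.6, 20.1 and 23.6 TPM in Ctrl and at 5.62, 7.22 and 5.34 TPM in TMEM216+IGF1, without overlap (log2 -1.63, SE 0.15, adjusted p = 0.000151). JDP2, a repressor of AP-1 and a partner of ATF proteins, varied more between libraries, at 25.9, 21.7 and 16.9 TPM in Ctrl and 4.51, 6.07 and 3.02 TPM in TMEM216+IGF1 (log2 -2.04, SE 0.32, adjusted p = 0.0068). NUPR1, a stress-induced chromatin protein, fell from 16.3 ± 2.19 to 5.55 ± 2.49 TPM (log2 -1.46, adjusted p = 0.00648). TRIB3, a pseudokinase that feeds back on ATF4, fell from 27.6 ± 1.27 to 13.3 ± 0.410 TPM, and SESN2, a leucine sensor upstream of mTORC1, from 16 ± 1.48 to 7.85 ± 0.433 TPM. PPP1R15A, which directs dephosphorylation of the initiation factor eIF2 alpha, fell from 245 ± 24.1 to 166 ± 15.4 TPM (adjusted p = 0.00935). ATF4 transcript itself was at 742, 746 and 738 TPM in Ctrl and at 559, 563 and 620 TPM in TMEM216+IGF1 (log2 -0.35, SE 0.08, adjusted p = 0.0436), a smaller fall than those of the genes above. The ATF4 call was lost without any 1 of the 6 libraries compared, Ctrl+IGF1 replicate 1 or TMEM216 replicate 2 (closest to 0 at log2 -0.33), and the PPP1R15A call without Ctrl replicate 1 or 2 or TMEM216+IGF1 replicate 2 (log2 -0.50). ATF4 also did not pass under median-of-ratios scaling, without the filter on low values, without the variance trend or with the replicate block. DDIT3, the pro-apoptotic factor CHOP (log2 -0.49, adjusted p = 0.0692), and ATF3 (log2 -0.52, adjusted p = 0.1) did not pass.

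ATF4 also switches on amino acid transporters and tRNA synthetases. Of 10 tested transporters, 5 were lower (median -0.486). SLC3A2, the heavy chain shared by several exchangers, was at 587, 586 and 624 TPM in Ctrl and at 389, 413 and 427 TPM in TMEM216+IGF1 (log2 -0.55, SE 0.07, adjusted p = 0.00165). SLC1A5, a glutamine carrier, fell from 319 ± 10.5 to 194 ± 6.50 TPM (log2 -0.72, adjusted p = 0.00411). The glycine carrier SLC6A9 (log2 -0.72), the leucine carrier SLC7A5 (log2 -0.42) and the alanine and serine carrier SLC1A4 (log2 -0.89) were also called. Their calls were lost without Ctrl replicate 2 or TMEM216+IGF1 replicate 2 for SLC6A9 (log2 -0.67), without any 1 of the 6 libraries compared for SLC7A5 (log2 -0.40), and without Ctrl replicate 2 or 3 or TMEM216+IGF1 replicate 1 or 3 for SLC1A4 (log2 -0.76). The cystine carrier SLC7A11 did not pass (log2 -0.67, adjusted p = 0.0861). Of 18 aminoacyl-tRNA synthetases, 3 were lower: GARS1 (288 ± 3.77 to 193 ± 6.44 TPM), MARS1 (286 ± 13.9 to 202 ± 2.49 TPM) and CARS1 (163 ± 4.25 to 124 ± 3.50 TPM). GARS1 and CARS1 lost their calls without any 1 of the 6 libraries compared (log2 -0.55 and -0.37 where nearest 0), and MARS1 without any of them but Ctrl replicate 1 (log2 -0.48). SARS1 stood at log2 -0.53 and AARS1 at -0.46 without passing (adjusted p = 0.0554 and 0.0748). The synthetase count ranged from 0 to 7 over the leave-one-out fits and was 10 with the 6 libraries alone. SLC1A5, SLC6A9 and MARS1 overlap another gene on the opposite strand.

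The plot of gene lists sets these groups beside the others with at least 2 called members. Lists share some genes, such as SESN2, CCN1, CXCL1, SLC7A11 and GADD45A.

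**Figure D3:**
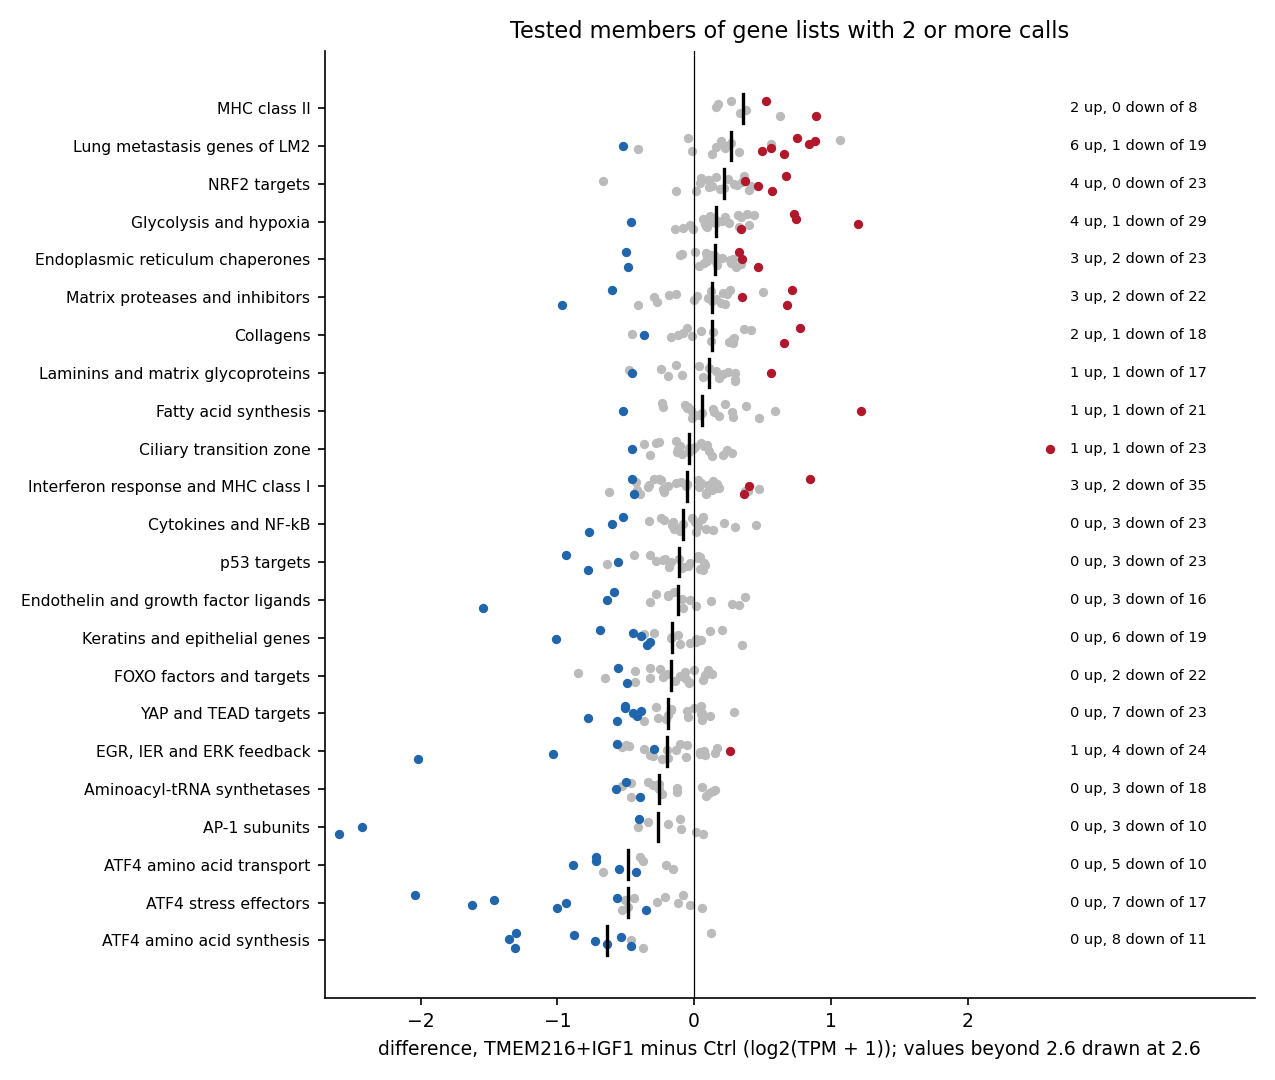
Differences between TMEM216+IGF1 and Ctrl (log2(TPM + 1), horizontal axis; values beyond 2.6 are drawn at 2.6) for the tested members of each gene list with at least 2 called members, ordered by median (black bar). Red points were called higher, blue points lower and grey points neither; the 3 ATF4 lists, with medians from -0.637 to -0.486, lie at the bottom.

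Several secreted signals were lower. EDN1, the precursor of the vasoconstrictor peptide endothelin 1, was at 60.5, 61.0 and 59.9 TPM in Ctrl and at 19.9, 20.1 and 20.3 TPM in TMEM216+IGF1. The libraries of each group lay close together, and the mean was 3.01-fold lower (log2 -1.54, SE 0.08, adjusted p = 5.89e-07). KISS1, whose product was named as a suppressor of metastasis, was at 43.7, 46.6 and 47.3 TPM in Ctrl and at 15.4, 15.0 and 21.6 TPM in TMEM216+IGF1, without overlap (log2 -1.37, SE 0.16, adjusted p = 0.000913). IL6, an inflammatory cytokine, was at 193, 200 and 192 TPM in Ctrl and at 115, 112 and 116 TPM in TMEM216+IGF1 (log2 -0.77, SE 0.06, adjusted p = 3.85e-05), and overlaps STEAP1B on the opposite strand. The neutrophil chemokine CXCL1 fell from 244 ± 11.8 to 170 ± 7.47 TPM and the alarmin IL1A from 20.1 ± 0.768 to 12.9 ± 0.562 TPM (adjusted p = 0.00219 and 0.00762). These were the 3 lower of 23 tested cytokine and NF-kB genes, whose median was -0.081. CXCL8 (0.03), IL1B (-0.10), CSF2 (-0.14) and NFKBIA (0.22) did not pass. Among 16 growth factor and vasoactive ligands, PDGFB (log2 -0.64) and the activin chain INHBA (log2 -0.59) were lower besides EDN1. Both calls were lost without any 1 of the 6 libraries compared, and that of INHBA also without Ctrl+IGF1 replicate 1 or TMEM216 replicate 2 (log2 -0.57 and -0.54 where nearest 0).

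Targets of YAP and TEAD, the transcription factors at the end of the Hippo pathway, included 7 genes called lower of 23 tested and none called higher (median -0.189). ANKRD1, a nuclear ankyrin repeat protein, was at 508, 521 and 525 TPM in Ctrl and at 303, 299 and 306 TPM in TMEM216+IGF1. The replicates lay within a few percent of each other, and the mean was 1.71-fold lower (log2 -0.77, SE 0.06, adjusted p = 3.54e-05). CCN1, given above, also counts here. The kinase NUAK2 (log2 -0.51), the YAP-binding AMOTL2 (log2 -0.42), the LIM protein AJUBA (log2 -0.45), the exchange factor ARHGEF17 (log2 -0.51) and the coagulation initiator F3 (log2 -0.39) had adjusted p between 0.0175 and 0.0485. NUAK2 was lost without any of the 6 libraries compared but Ctrl replicate 1 (log2 -0.46 where nearest 0), AMOTL2 without any 1 of the 6 (log2 -0.38), and AJUBA, ARHGEF17 and F3 without any 1 of the 6, Ctrl+IGF1 replicate 1 or TMEM216 replicate 2 (log2 -0.39, -0.42 and -0.34). The list's count fell to 2 in the lowest leave-one-out fit. CCN2 (log2 -0.37, adjusted p = 0.172), YAP1 (log2 0.06) and WWTR1 (log2 0.29), the gene of the YAP paralogue TAZ, did not pass.

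Several keratins of simple epithelium were lower. KRT8 was at 634, 612 and 621 TPM in Ctrl and at 492, 487 and 513 TPM in TMEM216+IGF1 (log2 -0.32, SE 0.06, adjusted p = 0.0154). KRT7 fell from 401 ± 9.82 to 316 ± 18.1 TPM and KRT19 from 92.5 ± 2.25 to 70.6 ± 1.38 TPM, and with KRT17, CLDN1 and CD24 made up 6 of 19 tested genes lower and none higher (median -0.165). KRT17 was low throughout, at 1.75 ± 0.264 and 0.375 ± 0.215 TPM, and has near-identical pseudogenes. It was tested only because of its level in the Ctrl and Ctrl+IGF1 libraries. All 6 calls were lost without Ctrl replicate 1 or 3 or TMEM216+IGF1 replicate 1 or 2, where the count was 0. Those of KRT8 and KRT7 were also lost without Ctrl replicate 2, those of KRT19, CLDN1 and CD24 without Ctrl replicate 2, TMEM216+IGF1 replicate 3 or Ctrl+IGF1 replicate 1, and that of CD24 without TMEM216 replicate 2. The differences were log2 -0.31 for KRT8, -0.29 for KRT7, -0.36 for KRT19, -0.89 for KRT17, -0.62 for CLDN1 and -0.41 for CD24 where nearest 0. Under median-of-ratios scaling KRT7 and KRT19 did not pass, which left 4. KRT8 overlaps KRT18 and KRT7 overlaps KRT86. The 6 luminal epithelium markers, among them KRT8 and KRT19, summed to 1640 to 1720 TPM in Ctrl and to 1390 to 1530 TPM in TMEM216+IGF1. Of these markers, the keratin KRT18 did not pass (means of 962.2 and 894.7 TPM, log2 -0.106, limma adjusted p = 0.709), nor did MUC1 (log2 0.113). TFF1 and FOXA1 did not reach the minimum level for testing. In bulk RNA, fewer cells of a type and less RNA per cell cannot be told apart. Of 14 mesenchymal genes 1 was lower, the actin-binding TAGLN (14.8 ± 0.643 to 8.16 ± 1.62 TPM, log2 -0.80, adjusted p = 0.00963), which lost its call without Ctrl replicate 2 (log2 -0.66) and was chosen for mention after its values were seen.

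SCD, the enzyme that makes oleate from stearate, had the largest rise after TMEM216 among called genes with a symbol and a mean TPM of 5 or more. It was at 27.0, 26.7 and 29.2 TPM in Ctrl and at 67.3, 68.3 and 61.9 TPM in TMEM216+IGF1. The lowest treated library was well above the highest Ctrl library, and the mean rose 2.38-fold (log2 1.22, SE 0.14, adjusted p = 0.000778). SCD was the only higher gene of 21 tested in fatty acid synthesis. SREBF1, which encodes a factor that activates it, stood at 33.1 ± 1.05 and 46.8 ± 7.10 TPM (log2 0.47, adjusted p = 0.0643), and the desaturase FADS2 at 116 ± 3.01 and 176 ± 13.9 TPM (log2 0.59, adjusted p = 0.238), neither passing. FADS3 was lower (78.4 ± 1.65 to 54.9 ± 8.46 TPM, log2 -0.52), lost without any Ctrl library or TMEM216+IGF1 replicate 1 or 2 (log2 -0.40) and under median-of-ratios scaling. Of 25 cholesterol synthesis genes none passed, with 21 above 0 and a median of 0.145.

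Other genes with the largest rises were spread over several functions. DHRS3, a retinal reductase (3.83 ± 0.279 to 7.97 ± 0.377 TPM), and SLCO3A1, an organic anion carrier (5.35 ± 0.229 to 10.6 ± 0.803 TPM), rose with log2 differences of 0.89 (adjusted p = 0.00754) and 0.87 (adjusted p = 0.000492). EFNB2, a membrane ligand of Eph receptors, was at 16.2, 18.1 and 18.2 TPM in Ctrl and at 33.5, 34.4 and 31.1 TPM in TMEM216+IGF1 (log2 0.88, SE 0.12, adjusted p = 0.00319), the only called gene of 12 ephrins and Eph receptors. The adhesion molecule NECTIN1 (log2 0.85), the antiviral protein OASL (log2 0.85) and the orphan receptor GPRC5C (log2 0.82) rose as well. ALDH3A1, an aldehyde dehydrogenase, was low (3.71 ± 1.15 and 6.88 ± 1.01 TPM, log2 0.76, adjusted p = 0.0353) and lost its call without Ctrl replicate 1 or 2, Ctrl+IGF1 replicate 1, TMEM216 replicate 2 or TMEM216+IGF1 replicate 1 or 2 (closest to 0 at log2 0.66), and also with the 6 libraries alone. Among called genes with a symbol and a mean TPM of 5 or more, the largest falls outside the groups described here were C6orf132 (8.02 ± 1.23 to 2.35 ± 0.989 TPM, log2 -1.46, adjusted p = 0.0029) and ADAMTSL4, a microfibril-associated protein (17.1 ± 0.5 to 7.24 ± 0.837 TPM, log2 -1.14, adjusted p = 0.00207). Both calls held without each of the 12 libraries.

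NRF2, the factor that answers oxidative stress, had 4 of 23 tested target genes higher and none lower (median 0.222). NQO1, a quinone reductase, was at 224, 228 and 231 TPM in Ctrl and at 328, 344 and 346 TPM in TMEM216+IGF1 (log2 0.57, SE 0.06, adjusted p = 0.00054). AKR1C3, a ketosteroid reductase with close paralogues that could share its reads, rose from 46.7 ± 2.18 to 74.8 ± 3.12 TPM (log2 0.67, adjusted p = 0.000913). TKT, a transketolase, rose less (log2 0.37). The call of TKT was lost without any 1 of the 6 libraries compared or Ctrl+IGF1 replicate 1 (log2 0.34). HMOX1 (log2 -0.13) and GCLC (log2 0.01) did not pass, nor did GCLM (log2 0.40, adjusted p = 0.0643). With the 6 libraries alone the count of higher genes was 8, and 8 and 7 under quantile and median-of-ratios scaling.

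Of 19 tested genes listed for the lung metastasis signature of this line, 6 were higher and 1, CXCL1, lower (median 0.268). Whether the signature holds each gene as raised or as lowered was not considered, so these counts give no direction for the signature. ID1, an inhibitor of differentiation factors, was at 314, 324 and 324 TPM in Ctrl and at 509, 477 and 537 TPM in TMEM216+IGF1 (log2 0.66, SE 0.10, adjusted p = 0.00494). IL13RA2, a decoy receptor for interleukin 13, was at 269, 268 and 272 TPM in Ctrl and at 371, 391 and 379 TPM in TMEM216+IGF1 (log2 0.49, SE 0.06, adjusted p = 0.00219). In both genes the groups were widely separated. PLAAT4, a phospholipase and acyltransferase induced by retinoids, rose from 12.5 ± 1.68 to 23.9 ± 1.10 TPM (log2 0.89, adjusted p = 0.00521). ROBO1, a guidance receptor, rose from 9.97 ± 1.45 to 17.5 ± 2.46 TPM, ADIRF from 76.3 ± 3.32 to 138 ± 4.94 TPM, and the matrix protein TNC from 36.7 ± 2.07 to 54.6 ± 2.96 TPM. These last 3 calls were fragile: ROBO1 was lost without Ctrl replicate 1 or 2 or TMEM216+IGF1 replicate 1 or 2 (log2 0.68), ADIRF without any 1 of the 6 libraries compared (log2 0.82), and TNC without any of the 6, Ctrl+IGF1 replicate 1 or TMEM216 replicate 1 or 2 (log2 0.52). MMP1 (log2 -0.41, adjusted p = 0.157), PTGS2 (log2 -0.02) and VCAM1 (log2 0.21) did not pass. ADIRF overlaps MMRN2 on the opposite strand.

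Matrix genes moved in both directions. COL6A1, a chain of collagen VI, was at 171, 169 and 159 TPM in Ctrl and at 268, 248 and 275 TPM in TMEM216+IGF1 (log2 0.66, SE 0.08, adjusted p = 0.00102). Its partner chain COL6A3 rose from 3.39 ± 0.307 to 6.52 ± 0.594 TPM (log2 0.78, adjusted p = 0.00553). COL1A1 fell from 58.6 ± 1.26 to 45.3 ± 0.599 TPM (log2 -0.36) and LOX, which cross-links collagen, from 38.3 ± 1.03 to 27.7 ± 1.35 TPM (log2 -0.45). Of 18 tested collagens, 2 were higher and 1 lower, with a median of 0.129. Among 22 matrix proteases and inhibitors, the inhibitor TIMP3 (95.4 ± 5.44 to 157 ± 9.44 TPM), the sheddase ADAM19 (18.3 ± 0.708 to 30.0 ± 1.13 TPM) and the urokinase receptor PLAUR (310 ± 14.3 to 395 ± 9.45 TPM) were higher. The stromelysin MMP3 (20.9 ± 0.954 to 10.3 ± 1.10 TPM, log2 -0.97, adjusted p = 0.00131) and the urokinase inhibitor SERPINB2 (74.0 ± 4.88 to 48.6 ± 3.86 TPM) were lower. COL6A1, COL6A3 and MMP3 kept their calls without each of the 12 libraries. COL1A1, PLAUR and SERPINB2 were lost without any 1 of the 6 libraries compared (log2 -0.35, 0.31 and -0.55 where nearest 0), and LOX without any of the 6, Ctrl+IGF1 replicate 1 or TMEM216 replicate 2 (log2 -0.42). TIMP3 and ADAM19 were lost without Ctrl replicate 1 or 2 or TMEM216+IGF1 replicate 1 or 2 (log2 0.68 and 0.65). None of 12 integrins passed, with ITGA2 nearest (log2 0.77, adjusted p = 0.0619). LOX and ADAM19 overlap another gene on the opposite strand.

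Antigen presentation genes were called in both directions. HLA-DRA, the alpha chain of an MHC class II molecule, was at 23.3, 24.9 and 25.5 TPM in Ctrl and at 53.5, 43.7 and 42.9 TPM in TMEM216+IGF1 (log2 0.89, SE 0.10, adjusted p = 0.000657). CD74, the invariant chain of class II, rose from 203 ± 12.2 to 292 ± 16.1 TPM (log2 0.52, adjusted p = 0.0121), and all 8 tested class II genes were above 0, with a median of 0.356. CIITA, the class II master regulator, did not pass (4.63 ± 0.406 and 5.80 ± 0.403 TPM, log2 0.27, adjusted p = 0.533). HLA-E, a non-classical class I gene whose reads could be shared with its relatives, fell from 264 ± 4.77 to 195 ± 5.38 TPM (log2 -0.44, adjusted p = 0.00386), and the peptide transporter TAP1 from 37.6 ± 2.16 to 27.2 ± 1.57 TPM (log2 -0.46, adjusted p = 0.0365). Among 35 interferon response and class I genes these 2 were lower, and OASL, IFIT1 (log2 0.40) and IFI44 (log2 0.36) were higher. Calls were lost for CD74 without Ctrl replicate 3 or TMEM216+IGF1 replicate 1 or 3 (log2 0.47), for IFIT1 without any 1 of the 6 libraries compared (log2 0.38), for TAP1 without any of the 6 or Ctrl+IGF1 replicate 1 (log2 -0.41), and for IFI44 without any of the 6, Ctrl+IGF1 replicate 1 or TMEM216 replicate 2 or 3 (log2 0.33). IFIT1 and TAP1 overlap another gene on the opposite strand.

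Genes of low oxygen and glycolysis included 4 higher and 1 lower of 29 tested (median 0.161). NDRG1, a stress-responsive protein, was at 32.0, 31.5 and 32.2 TPM in Ctrl and at 52.7, 57.7 and 50.9 TPM in TMEM216+IGF1 (log2 0.73, SE 0.16, adjusted p = 0.0299). The carbonic anhydrases CA12 (11.5 ± 1.26 to 19.8 ± 0.620 TPM) and CA9 (0.558 ± 0.186 to 2.64 ± 0.977 TPM) and the lactate dehydrogenase chain LDHA (2350 ± 95.3 to 2980 ± 134 TPM) also rose. ADM, the precursor of the peptide adrenomedullin, fell from 197 ± 4.77 to 143 ± 5.58 TPM (log2 -0.46, adjusted p = 0.007) and kept its call without each of the 12 libraries. Of the rises, CA12 was lost without any of the 6 libraries compared but Ctrl replicate 3 (log2 0.68), CA9 without any of them but TMEM216+IGF1 replicate 2 (log2 1.00), NDRG1 without any of the 6 or Ctrl+IGF1 replicate 1 (log2 0.68), and LDHA without any of the 6, Ctrl+IGF1 replicate 1 or TMEM216 replicate 2 (log2 0.31). The count of higher genes thus fell to 0 in the lowest leave-one-out fit and was 10 with the 6 libraries alone. LDHA also did not pass under quantile normalization. CA9 overlaps ARHGEF39 on the opposite strand.

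Chaperone and stress response genes of the endoplasmic reticulum were called in both directions. HSP90B1, an abundant chaperone, rose from 634 ± 20.7 to 875 ± 38.1 TPM (log2 0.46, adjusted p = 0.00443) and kept its call without each of the 12 libraries. CALR, a calcium-binding chaperone (870 ± 22.6 to 1110 ± 20.7 TPM), and MANF, a secreted stress factor (166 ± 6.81 to 209 ± 2.09 TPM), were higher, and XBP1, a transcription factor of the unfolded protein response (131 ± 3.52 to 92.7 ± 2.62 TPM), and HERPUD1 (50.1 ± 3.71 to 35.5 ± 3.44 TPM), which aids disposal of misfolded proteins, were lower. These were 3 higher and 2 lower of 23 tested, with a median of 0.152. CALR and XBP1 were lost without any 1 of the 6 libraries compared (log2 0.34 and -0.48), MANF without any of the 6, Ctrl+IGF1 replicate 1 or TMEM216 replicate 2 or 3 (log2 0.30), and HERPUD1 without any of the 6, Ctrl+IGF1 replicate 1 or 2 or TMEM216 replicate 2 (log2 -0.41). CALR also did not pass under quantile normalization. HSP90B1 overlaps UQCC6 on the opposite strand.

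Few genes close to the 2 factors themselves were called. As only 2.32% of all features were called, the counts do not show that these genes changed less than others. Among 23 tested transition zone genes, the partners of the TMEM216 protein, TMEM107 was the only one called besides TMEM216. It fell from 18.3 ± 0.413 to 13.1 ± 0.253 TPM (log2 -0.46, adjusted p = 0.0385), and was lost without any 1 of the 6 libraries compared or Ctrl+IGF1 replicate 1 (log2 -0.44). TMEM138, which lies next to TMEM216 in the genome, stood at 96.0 ± 4.82 and 105 ± 2.08 TPM (log2 0.13, adjusted p = 0.459). None of 36 intraflagellar transport and BBSome genes passed (median -0.010). In the Hedgehog pathway, which signals through the cilium, the ligand SHH was at 2.98, 3.04 and 3.60 TPM in Ctrl and 5.00, 5.64 and 4.78 TPM in TMEM216+IGF1 (log2 0.55, adjusted p = 0.0439). It was the only called gene of 11 tested, was chosen for mention after its values were seen, and was lost without any of the 6 libraries compared, Ctrl+IGF1 replicate 1 or 2 or TMEM216 replicate 2 (log2 0.49). The pathway's transcriptional target PTCH1 stood at log2 -0.25 without passing. For IGF signalling, the receptor IGF1R (log2 -0.12) and the adaptors IRS1 (log2 -0.15) and IRS2 (log2 -0.27) did not pass, with 95% intervals of -0.41 to 0.17, -0.44 to 0.14 and -0.55 to 0.00. The secreted IGF-binding protein IGFBP4, also chosen after its values were seen, rose from 893 ± 23.9 to 1070 ± 10.6 TPM (log2 0.26, adjusted p = 0.0217) as the only called gene of 25. Its call was lost without any 1 of the 6 libraries compared (log2 0.24) and under both scalings. Of 22 FOXO factors and targets, which AKT holds in check, GADD45A (log2 -0.56) and BCL6 (log2 -0.49) were lower, lost without any Ctrl library or TMEM216+IGF1 replicates 2 and 3 for GADD45A (log2 -0.49) and 1 and 2 for BCL6 (log2 -0.45).

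Several lists, among them those of cell growth and division, held no called gene: 39 of G1/S and DNA replication (median -0.057), 38 of mitosis (0.008), 33 of ribosome biogenesis and MYC (0.002), 80 cytoplasmic ribosomal proteins (-0.003), 76 nuclear genes of oxidative phosphorylation (0.034), 9 replication-dependent histones (0.119), 13 heat shock genes (0.117) and 17 selenium and glutathione enzymes (0.027). With 2.32% called over all features, lists this short would hold few calls or none, so their lack of calls says little. Of 17 laminins and matrix glycoproteins, TNC was higher and LOX lower (median 0.11), both given above. Of 33 lysosome and autophagy genes 1 was lower, MAP1LC3B, an autophagosome protein (log2 -0.40, adjusted p = 0.0158), chosen after its values were seen and lost without any Ctrl library, without TMEM216+IGF1 replicate 1 or 3 (log2 -0.37) and under median-of-ratios scaling. Of 23 p53 targets, 3 were lower and none higher (median -0.109). These were SESN2 and GADD45A, given above, and BBC3, the pro-apoptotic PUMA, which fell from 10.4 ± 1.6 to 5.69 ± 1.32 TPM (log2 -0.78, adjusted p = 0.0202) and was lost without Ctrl replicate 1 or 3 or TMEM216+IGF1 replicate 1 or 2 (log2 -0.69). The other p53 targets named by their p, DDB2 (log2 -0.28), GDF15 (log2 -0.44) and PLK2 (log2 -0.32), did not pass.

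The last question the design allows is how the combined difference stands to the single ones. All 3 differences from Ctrl share the same Ctrl libraries, so their values are only set side by side. The single differences, and the test that follows, also rest on Ctrl+IGF1 replicate 3 and TMEM216 replicate 1, whose ribosomal protein share was higher. The features called lower had a median of -0.579 in TMEM216+IGF1, -0.477 in TMEM216 and -0.176 in Ctrl+IGF1, and those called higher had medians of 0.548, 0.334 and 0.026. These features, and the genes named from them below, were chosen by their combined difference. That choice by itself tends to make the combined value the largest, so the order of the values does not show that the factors add up. Ctrl+IGF1 against Ctrl alone gave 4 calls (0.0306%), TMEM216 against Ctrl 143 (1.09%; 0.153% higher and 0.941% lower), TMEM216+IGF1 against TMEM216 2 (0.0153%) and TMEM216+IGF1 against Ctrl+IGF1 211 (1.61%; 0.918% higher and 0.696% lower). At an unadjusted p under 0.05 there were 900 features for Ctrl+IGF1 against Ctrl and 624 for TMEM216+IGF1 against TMEM216, where 654 of 13071 would have it if no feature differed. The calls of TMEM216+IGF1 against TMEM216 were FOS and the assembled feature MSTRG.13414.13, both lower. Some genes, as the plot of single and combined differences shows, stood at about the same place with TMEM216 alone: CTH at -1.33 and -1.35, CHAC1 at -1.65 and -1.63, PCK2 at -1.16 and -1.30, for TMEM216 and for TMEM216+IGF1. In others the values with single factors lay between 0 and the combined one: ASNS stood at -0.34 with IGF1, -0.94 with TMEM216 and -1.31 with both, EGR1 at -0.53, -1.18 and -2.02, EDN1 at -0.40, -1.02 and -1.54, and KISS1 at -0.60, -0.44 and -1.37. With IGF1 alone none of these 4 passed (adjusted p = 0.506, 0.564, 0.317 and 0.673 in that order), and with TMEM216 alone KISS1 did not (adjusted p = 0.249). FOSB stood at -1.22 with IGF1, -1.90 with TMEM216 and -2.43 with both. Unlike those 4, it passed with IGF1 alone (limma adjusted p = 0.0386).

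**Figure D4:**
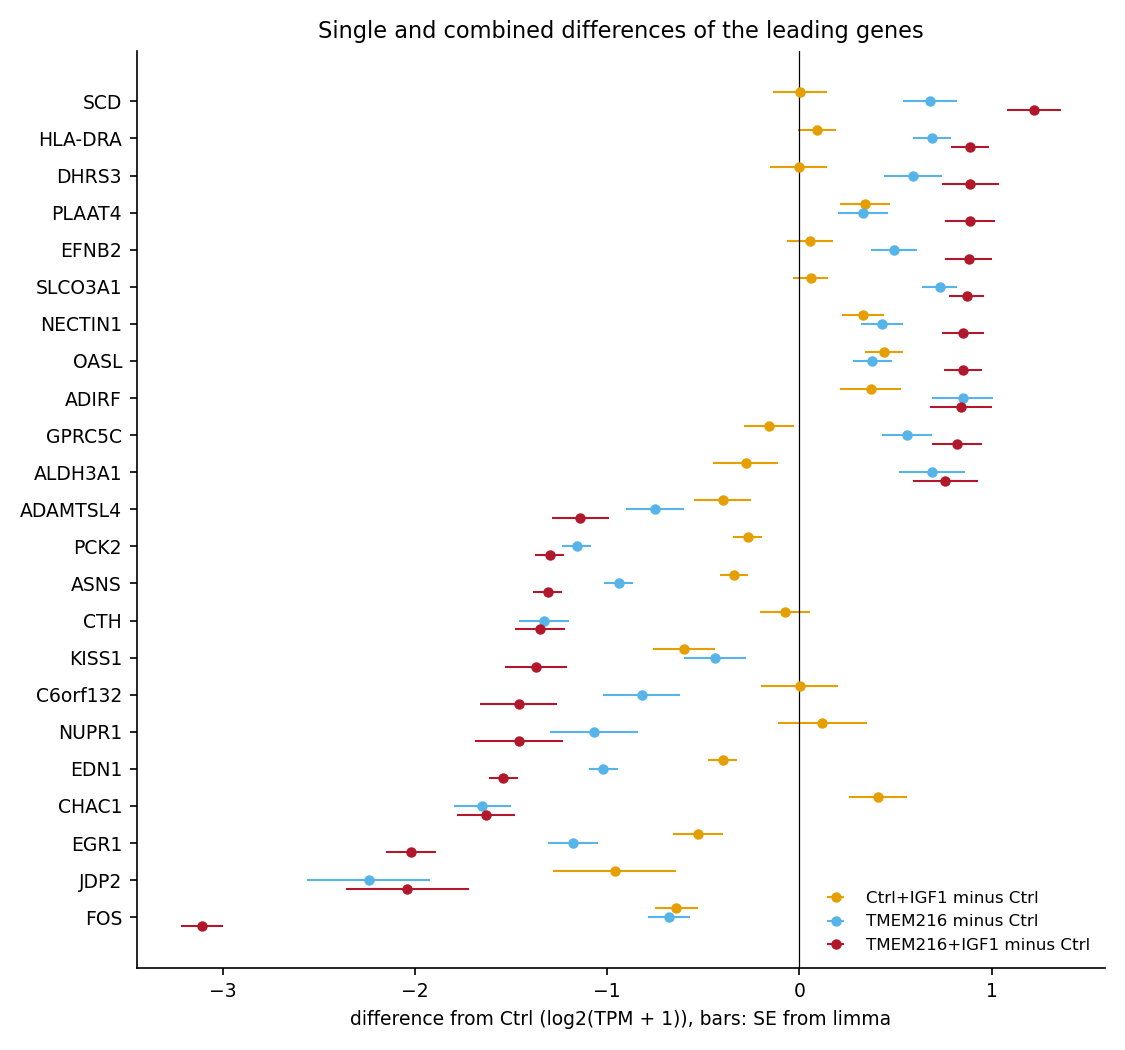
Differences from Ctrl (log2(TPM + 1), horizontal axis; bars are limma's SE) in Ctrl+IGF1, TMEM216 and TMEM216+IGF1 for the genes with the largest rises and falls other than TMEM216. FOS stands at -0.64 and -0.68 with the single factors and at -3.11 with both.

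Whether the combined difference departs from the sum of the single ones was tested as an interaction. The median interaction over all features was 0.107, so single values are to be read against that shift. Only 2 features passed (0.0153%; 0.00765% higher and 0.00765% lower), and 703 had an unadjusted p under 0.05, near those 654. FOS was at 65.5 ± 4.47 TPM in Ctrl+IGF1 and 64.3 ± 10.6 TPM in TMEM216. Its difference with IGF1 was -0.64 in Ctrl cells, which did not pass (adjusted p = 0.158), and -2.43 in TMEM216 cells (adjusted p = 5.24e-07). Its combined fall exceeded the sum of the single ones by 1.79 on the log2 scale (SE 0.15, adjusted p = 0.000965), and it passed in all 12 leave-one-out fits (largest adjusted p = 0.00758). The other was ENSG00000273049, a gene without a symbol that overlaps HOXC6 and HOXC5 on the same strand. It was at 1.90, 2.94 and 3.49 TPM in Ctrl and listed at 0 in all 9 other libraries, so its interaction (log2 1.89, adjusted p = 0.0445) only restates its difference of -1.89 between Ctrl+IGF1 and Ctrl and is no separate result. It passed in 1 of 12 leave-one-out fits. For the other leading genes no departure passed: SCD stood at 0.54 (95% interval 0.11 to 0.97, adjusted p = 0.754), JDP2 at 1.17, EGR1 at -0.31 and ASNS at -0.03 (95% interval -0.26 to 0.20). FOSB stood at 0.69 (95% interval 0.20 to 1.18, limma adjusted p = 0.754), opposite in sign to FOS, and did not pass.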

How the data were processed

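Bulk RNA-seq of 12 libraries was used, 3 in each of 4 groups. The authors deposited a single table of TPM values, with 21574 features, of which 1131 carried assembler names (MSTRG) and no gene symbol. HISAT2, StringTie and RSEM were used per the submitters' processing notes. Their versions, the genome build, the annotation and the strand setting were not given in these sources. TPM hides depth, so no counting error could be given.

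TPM was converted to log2(TPM + 1). The 13071 features at a TPM of 1 or more in at least 3 libraries were fitted with limma 3.58.1 (R 4.3.3, data.table version 1.17.8), with the 4 groups together, moderated variances with a trend and Benjamini-Hochberg adjustment over all features at 0.05. The combined difference was TMEM216+IGF1 minus Ctrl; the interaction was the IGF1 difference in TMEM216 cells minus that in Ctrl cells. Scripts ran in Python 3.11.15 with pandas 2.3.3, numpy 2.4.6 and matplotlib 3.10.9, and the fit was tested on simulated data. The table held 0 columns of other samples. Overlapping genes were looked up in GENCODE v29 and promoters in a RefSeq table.

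The genes named were the 12 largest rises and 12 largest falls among called genes with a mean TPM of 5 or more over the 6 libraries, no overlap between groups and a gene symbol. TMEM216, IGF1, IGF1R, IRS1 and IRS2 were always named, as were up to 6 members with the smallest p in each list with 2 or more called members. For the interaction, up to 6 called genes averaging a TPM of 5 or more were named. Other members, mostly given as not passing, were chosen after their values were seen. The 39 pathway lists and 9 marker lists, and the comparison itself, were chosen with earlier results of these data known. Alternatives changed the pseudocount, the filter, the scaling, the variance trend, the libraries in the fit, the threshold and a replicate block, and left out each library in turn. Leaving out Ctrl+IGF1 replicate 3 and TMEM216 replicate 1 together was added after seeing the data. Some genes that enter the counts are not reported here by name.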

Additional observations from a re-analysis of the deposited data

Results flagged for a closer look

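The IGF1 difference in TMEM216 cells minus that in Ctrl cells was tested for every feature, and it passed for FOS at -1.79 (adjusted p = 0.000965, limma). FOS ranged from -1.87 to -1.66 over the 12 leave-one-out fits and passed in each.

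The same test passed for ENSG00000273049 at 1.89 (adjusted p = 0.0445), a gene listed at 0 in all libraries outside Ctrl. It was tested only because of its level in Ctrl, and its IGF1 difference in TMEM216 cells is 0 by construction, so the value only restates the difference of -1.89 in Ctrl cells and shows no departure from additivity. The value was 4.80 with a pseudocount of 0.1 (adjusted p = 0.754), 1.82 under quantile normalization (adjusted p = 0.0534) and 1.86 under median-of-ratios scaling (adjusted p = 0.0508). It ranged from 1.76 to 2.07 over the leave-one-out fits and passed in 1 of 12 (largest adjusted p = 0.184).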

How the results depend on the processing

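The counts of features called in TMEM216+IGF1 against Ctrl, 303 with 102 higher and 201 lower, became 721, 266 and 455 with the 6 libraries alone, 690, 236 and 454 without both Ctrl+IGF1 replicate 3 and TMEM216 replicate 1 (added after seeing the data), and 29, 5 and 24 with an absolute log2 difference of at least 1. Higher calls numbered 187 under quantile normalization and 172 under median-of-ratios scaling. Leaving out 1 library gave 98 to 430 calls, 33 to 142 higher and 65 to 288 lower. Calls under the interaction fell from 2 to 1 with a pseudocount of 0.1, a TPM minimum of 5, quantile normalization, median-of-ratios scaling, the replicate block and both libraries left out, and ranged from 1 to 3 without 1 library. The cause was not tested. The TMEM216 difference stayed between 2.99 and 3.15 in the leave-one-out fits. Same-numbered Ctrl and TMEM216+IGF1 libraries had deviations correlated at 0.037, 0.064 and -0.103. Such weak values cannot tell whether same-numbered libraries were prepared together, which the labels do not state. With the replicate block 205 features were called, 70 higher and 135 lower. Of 134 called named genes, 62 kept their call without each library, 72 lost it without at least 1, 37 lost it under another setting, and 0 reversed. List medians near 0 changed sign under a scaling for transition zone (0.001, quantile), Hedgehog (0.052, quantile; 0.019, median-of-ratios), interferon (0.006, quantile) and mesenchymal genes (0.003, median-of-ratios). With 3 libraries a group and no read counts, small differences in low genes could not be judged.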

Other observations

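Several genes outside the lists were called in TMEM216+IGF1 against Ctrl, and those below were chosen after their values were seen. CSF1, the macrophage growth factor, rose from 29 ± 1.1 to 47.1 ± 1.89 TPM (log2 0.68, limma adjusted p = 0.00104). PTGES, which makes prostaglandin E, rose from 292 ± 4.05 to 416 ± 1.70 TPM, and CALB2, a calcium-binding protein, from 39.0 ± 3.62 to 62.0 ± 2.00 TPM. The cholesterol exporter ABCA1 rose from 0.444 ± 0.0765 to 1.69 ± 0.225 TPM. ABCA1 was under 1 TPM in every Ctrl and Ctrl+IGF1 library. It was tested only because of its level in the TMEM216 and TMEM216+IGF1 libraries.

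ADM2, a peptide of the adrenomedullin family, fell from 5.84 ± 0.485 to 1.28 ± 0.177 TPM (log2 -1.59, adjusted p = 2.44e-05), and EEF1A2, a translation elongation factor, from 22.9 ± 2.25 to 11.2 ± 0.933 TPM (log2 -0.97). SLC16A1, a lactate carrier, was lower (3.04 ± 0.564 to 0.747 ± 0.214 TPM), as were the homeobox gene HOXB9 (20.2 ± 1.55 to 11.1 ± 0.236 TPM), which overlaps HOXB7 on the same strand, TEAD3 (30.4 ± 1.33 to 19.1 ± 0.585 TPM), a partner of YAP, and ALS2CL (28.6 ± 0.486 to 13.7 ± 2.37 TPM). SAA1, an acute phase protein with a near-identical copy that could share its reads, fell from 83.4 ± 7.86 to 46.0 ± 3.02 TPM. The calls in both paragraphs held without each of the 12 libraries.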
